A study of Homo sapiens with 6 samples.

Results

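The let-7 miRNAs are cut from hairpin precursors, and each hairpin can give a mature miRNA from its 5' side (the 5p arm) and another from its 3' side (the 3p arm). The miRNAs described here were the 3p arms of the let-7 hairpins and both arms of the related miR-98 hairpin. They were taken by name from the deposited count table, as hsa-let-7a-3p, hsa-let-7b-3p, hsa-let-7d-3p, hsa-let-7e-3p, hsa-let-7f-1-3p, hsa-let-7f-2-3p, hsa-let-7g-3p, hsa-let-7i-3p, hsa-miR-98-5p and hsa-miR-98-3p, and make up 10 of its 2588 mature miRNAs. The 6 libraries came from Caco-2, an established human colorectal adenocarcinoma cell line, and no other cell line was analysed here. In 3 of them (m7G-RIP) total RNA was immunoprecipitated with an antibody against 7-methylguanosine (m7G), and in the other 3 (input) the RNA was sequenced without immunoprecipitation. By the study's protocol the RNA of both groups was decapped and heat-denatured, bound RNA was released with 7-methyl-GTP, and the input went through the same purification. Whether same-group libraries came from separate cultures is not given in the labels, so p-values measure the spread between these libraries, which may be technical. No library of an immunoprecipitation with a control antibody was analysed here.

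After Drosha and Dicer have cut a let-7 hairpin, the 5p arm is the one usually kept by Argonaute as the guide strand, and the 3p arm is mostly discarded as the passenger strand. The let-7 guides are known as repressors of growth-promoting messages such as HMGA2 and the RAS genes, which they find through the seed, the bases near the 5' end that pair with the target. m7G is best known from mRNA caps, tRNA and rRNA, and the comparison of m7G-RIP with input asks which miRNAs the antibody retained more or less than the average miRNA. It does not show which base of a miRNA was bound.

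Mature sequences were found in RefSeq (GRCh38.p14) for 9 of the 10 miRNAs, all but let-7f-2-3p. The 3p arms are shown because some of them differ at few bases and yet differed in enrichment; capitals mark the seed, bases 2 to 8 from the 5' end.
let-7a-3p: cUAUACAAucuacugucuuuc
let-7b-3p: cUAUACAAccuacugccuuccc
let-7d-3p: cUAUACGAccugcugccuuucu
let-7e-3p: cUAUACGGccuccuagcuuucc
let-7f-1-3p: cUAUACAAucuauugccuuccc
let-7g-3p: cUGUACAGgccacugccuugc
let-7i-3p: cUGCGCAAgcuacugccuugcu
miR-98-3p: cUAUACAAcuuacuacuuuccc
The 5p arms of miR-98 and of the let-7 hairpins that the comparisons below turn on follow, with the same marking.
miR-98-5p: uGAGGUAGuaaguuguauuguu
let-7a-5p: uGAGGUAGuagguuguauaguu
let-7b-5p: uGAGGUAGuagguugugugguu
let-7e-5p: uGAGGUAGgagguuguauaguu
let-7f-5p: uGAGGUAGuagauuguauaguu

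let-7a-3p, let-7b-3p, let-7f-1-3p and miR-98-3p had the same seed, and no other listed miRNA with a RefSeq sequence had it. let-7d-3p, let-7e-3p, let-7g-3p and let-7i-3p each had a different one. The pair with the fewest differences was let-7b-3p and let-7f-1-3p, which differed at 2 of 22 bases, and the pair with the most was let-7e-3p and let-7i-3p, which differed at 11 of 22. With let-7b-3p as the reference, its base given first and positions counted from 1 at the 5' end, let-7f-1-3p carried C9U and C13U, let-7a-3p carried C9U, C16U and C20U, and miR-98-3p carried C10U, G15A and C17U. let-7d-3p carried A7G, A12G, C20U and C22U, and let-7e-3p carried A7G, A8G, A12C, G15A, C16G and C20U. Guanosines, the bases that can carry m7G, numbered 0 in miR-98-3p, 1 each in let-7a-3p, let-7b-3p and let-7f-1-3p, 3 each in let-7d-3p and let-7e-3p and 5 each in let-7g-3p and let-7i-3p, against 7 in miR-98-5p and 7 to 10 in the let-7 5p arms.

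The hairpins lie on 6 chromosomes (GRCh38.p14; host genes from GENCODE 44). MIRLET7A1 (chr9:94175957-94176036), MIRLET7F1 (chr9:94176347-94176433) and MIRLET7D (chr9:94178834-94178920) lie on the plus strand in exons of the long non-coding RNA MIRLET7A1HG, with 310 and 2400 bases between neighbours. let-7a-3p also comes from MIRLET7A3 (chr22:46112749-46112822), which lies 863 bases before MIRLET7B (chr22:46113686-46113768) on the plus strand in exons of MIRLET7BHG. MIR98 (chrX:53556223-53556341) and MIRLET7F2 (chrX:53557192-53557274) share an intron-borne cluster on the minus strand in HUWE1, 850 bases apart. MIRLET7E (chr19:51692786-51692864, plus strand) lies in an intron of SPACA6, MIRLET7G (chr3:52268278-52268361, minus strand) in an intron of WDR82, and MIRLET7I (chr12:62603686-62603769, plus strand) in an intron of MIRLET7IHG. MIRLET7I also overlaps an exon of a long non-coding RNA without a gene symbol on the same strand. MIRLET7D, MIRLET7E and MIRLET7I are also overlapped by long non-coding RNAs on the other strand, LINC02603, SPACA6-AS1 and LINC01465. The mature sequence of let-7a-3p thus occurs at 2 loci, that of let-7a-5p at 3 and that of let-7f-5p at 2, and reads of these miRNAs cannot be assigned to a locus.

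Total counts ran from 16466178 to 19628046 in the input and from 1654102 to 3105129 in m7G-RIP. The 10 miRNAs took 6214 to 7688 counts in the input libraries (0.0373 to 0.0397%) and 1591 to 3445 in the m7G-RIP libraries (0.0962 to 0.111%). Levels are given as CPM, counts scaled to 1e6 of the TMM-scaled library size, in which 3 counts correspond to 0.235 to 0.262 CPM in the input and 0.676 to 1.11 CPM in m7G-RIP, so that rare 3p arms were measured coarsely after immunoprecipitation. Sequenced reads carried no molecular identifiers, and statements on depth cover counting error only. The 5 epithelial marker miRNAs were detected in every library. Of the 8 markers of other cell types, miR-122-5p had no count, miR-223-3p had 1 and miR-124-3p had 6, while the muscle markers miR-1-3p and miR-133a-3p had 23135 and 2179 counts in the input and 8790 and 59 in m7G-RIP. The blood cell markers miR-142-3p, miR-451a and miR-144-3p had 215, 171 and 60 counts in the input and 8, 10 and 0 in m7G-RIP. Whether these counts came from the Caco-2 cells or from another source, and what part that had in the values below, was not tested.

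Of the 10 miRNAs, 9 passed the filter on low counts and were tested. let-7b-3p and miR-98-5p were enriched in m7G-RIP, let-7a-3p and let-7e-3p were depleted, and 5 passed the test in neither direction (edgeR's quasi-likelihood test over 800 miRNAs, Benjamini-Hochberg adjusted p under 0.05). Called miRNAs were common: of all tested miRNAs 78.2% were called, 40.1% as enriched and 38.1% as depleted, so that 4 calls among 9 are a smaller share than the background. The median log2 enrichment of the 9 was 0.07, against 0.16 over all tested miRNAs. The levels of both groups did not overlap for 3 of the 9 that were higher and 2 that were lower in m7G-RIP, where 82.1% of all tested miRNAs did not overlap, 41.4% with m7G-RIP higher and 40.8% with m7G-RIP lower. Where 0 lies depends on the scaling of libraries that differ this much in composition. Scaling by total counts shifted the log2 values of single tested miRNAs by a median of 1.09. It changed the split of calls from 51.3% to 69.1% enriched. With upper-quartile factors the median shift was 0.82, with 64.8% enriched. With DESeq2's size factors it was -0.34, with 45.1% enriched. Under these 3 scalings the log2 enrichment was 1.27 to 2.72 for let-7b-3p, 0.24 to 1.67 for miR-98-5p and -2.75 to -1.34 for let-7a-3p. With the median shift taken off, let-7b-3p lay between 1.62 and 1.63, miR-98-5p between 0.58 and 0.59 and let-7a-3p between -2.43 and -2.38. A scaling moves all miRNAs by nearly the same amount, so this closeness is built in and is not a test of the calls.

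**Figure D1:**
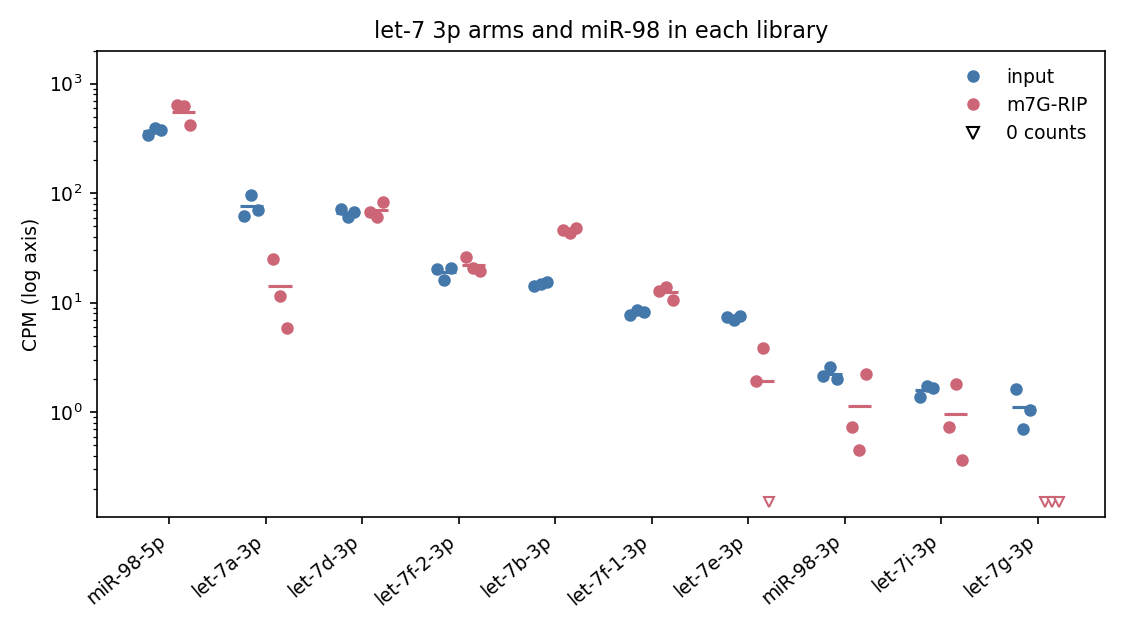
Level of each let-7 3p arm and both miR-98 arms in CPM on a log axis, with 1 point per library (3 input, 3 m7G-RIP), a bar at each group's mean and open triangles for libraries with 0 counts. The m7G-RIP points of let-7b-3p lie above its input points, those of let-7a-3p and let-7e-3p lie below, and let-7g-3p had 0 counts in the 3 m7G-RIP libraries.

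let-7b-3p was the most enriched of the 3p arms described here and the most even between the m7G-RIP libraries. It had 168, 190 and 178 counts in the input libraries 1 to 3 and 189, 194 and 130 in the m7G-RIP libraries 1 to 3. Its level rose from 14.9 ± 0.605 CPM in the input to 45.8 ± 2.11 CPM in m7G-RIP (SD, n = 3 each), and within m7G-RIP the highest library was 1.10-fold above the lowest. The enrichment was 3.07-fold (log2 1.62, SE 0.21, edgeR adjusted p = 1.37e-05).

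let-7a-3p and let-7e-3p moved the other way. let-7a-3p had 722, 1226 and 805 counts in the input and 103, 51 and 16 in m7G-RIP, and all 3 m7G-RIP levels (5.89 to 25.0 CPM) lay below the lowest input level of 61.6 CPM. It was depleted 5.24-fold (log2 -2.39, SE 0.38, edgeR adjusted p = 7.24e-05), and without m7G-RIP replicate 1, its highest m7G-RIP library, the log2 value was -3.09. Over all libraries left out in turn it ran from -3.09 to -2.16. let-7e-3p had 87, 89 and 86 counts in the input and 8, 17 and 0 in m7G-RIP. Its level of 7.30 ± 0.285 CPM in the input was above each m7G-RIP level (0 to 3.83 CPM), with a depletion of 3.44-fold (log2 -1.78, SE 0.57, edgeR adjusted p = 0.0119). Without m7G-RIP replicate 2 its log2 value was -2.82, and over all libraries left out in turn it ran from -2.82 to -1.41. The call of let-7e-3p was lost when libraries were scaled by total counts (log2 -0.74, edgeR adjusted p = 0.295) or by upper-quartile factors (log2 -0.96, edgeR adjusted p = 0.137), which move all miRNAs upwards as given above.

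miR-98-5p, which carries the let-7 seed, was the most abundant of the 10. It had 4007, 5034 and 4307 counts in the input and 2612, 2751 and 1132 in m7G-RIP. In CPM the m7G-RIP libraries held 634, 619 and 417, all above the highest input level of 394, and m7G-RIP replicate 3 was the nearest to it. The enrichment was 1.504-fold (log2 0.59, SE 0.17, edgeR adjusted p = 0.00694). The call was lost without m7G-RIP replicate 2 (log2 0.35, edgeR adjusted p = 0.167), with DESeq2's size factors (log2 0.24, edgeR adjusted p = 0.201), with DESeq2's Wald test (log2 0.24, adjusted p = 0.235) and with no filter on low counts (log2 0.28, edgeR adjusted p = 0.226).

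let-7f-1-3p, let-7f-2-3p and let-7d-3p did not pass the test. let-7f-1-3p had 90, 110 and 95 counts in the input and 53, 62 and 29 in m7G-RIP, and its m7G-RIP levels of 10.7 to 14.0 CPM did not overlap the input levels of 7.67 to 8.62 CPM (log2 0.62, SE 0.28, edgeR adjusted p = 0.0619). It passed the test without m7G-RIP replicate 3 (log2 0.62, edgeR adjusted p = 0.0317) and when libraries were scaled by total counts (log2 1.70) or upper-quartile factors (log2 1.44). let-7f-2-3p had 237, 208 and 237 counts in the input and 108, 93 and 53 in m7G-RIP, with overlapping levels (log2 0.23, SE 0.24, edgeR adjusted p = 0.400). let-7d-3p, the most counted of the 3p arms over all libraries, had 843, 767 and 776 counts in the input and 278, 267 and 224 in m7G-RIP, or 66.6 ± 5.98 and 70.0 ± 11.4 CPM (log2 0.07, SE 0.19, edgeR adjusted p = 0.743). For let-7d-3p and let-7f-2-3p the sign turned with DESeq2's size factors (log2 -0.27 and -0.12), and both were called enriched with total counts (log2 1.18 and 1.31).

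The remaining 3p arms were rare. let-7i-3p had 16, 22 and 19 counts in the input and 3, 8 and 1 in m7G-RIP (log2 -0.61, SE 0.61, edgeR adjusted p = 0.366). Over the m7G-RIP libraries left out in turn its value ran from -1.58, without replicate 2 (edgeR adjusted p = 0.0837), to -0.39. Its sign turned with total counts (log2 0.46) and upper-quartile factors (log2 0.20). miR-98-3p had 25, 33 and 23 counts in the input and 3, 2 and 6 in m7G-RIP (log2 -1.12, SE 0.62, edgeR adjusted p = 0.116). In CPM its m7G-RIP replicate 3, at 2.21, lay within the input range, and replicates 1 and 2, at 0.728 and 0.450, lay below it. Without replicate 3 miR-98-3p was called depleted (log2 -2.0, edgeR adjusted p = 0.0165), as it was with DESeq2's size factors (log2 -1.46, edgeR adjusted p = 0.0475). Over the m7G-RIP libraries left out in turn the value of miR-98-3p ran from -2.0 to -0.87. let-7g-3p had 19, 9 and 12 counts in the input and 0 in each m7G-RIP library, and did not pass the filter on low counts. It was tested, and called depleted, with no filter (edgeR adjusted p = 0.000979) and where 1 m7G-RIP replicate was left out (edgeR adjusted p of 0.00797 to 0.0136), which changes what the filter keeps. Setting 3 counts as the floor over the m7G-RIP group, it was at least 4.18-fold lower there.

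The 3p arms were next compared with the 5p arm of the same hairpin within each library, a ratio in which the scaling of libraries cancels. The let-7 guides themselves were mostly enriched: 6 of the 8 let-7 5p arms were called enriched and none depleted with TMM scaling. With DESeq2's size factors let-7g-5p and let-7i-5p were called depleted and 5 of the 8 enriched. With total counts or upper-quartile factors all 8 were called enriched. With TMM scaling let-7e-5p led with a log2 enrichment of 3.16, followed by let-7b-5p at 2.93 and let-7a-5p at 1.71. Next came let-7c-5p at 1.33, let-7d-5p at 1.00 and let-7f-5p at 0.63, while let-7g-5p (-0.15) and let-7i-5p (-0.00) did not pass the test. Their median was 1.16, and that of the 8 tested 3p arms was -0.27. Over all miRNAs the 314 tested 3p arms had a median of -0.31 and the 329 tested 5p arms 0.40.

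**Figure D2:**
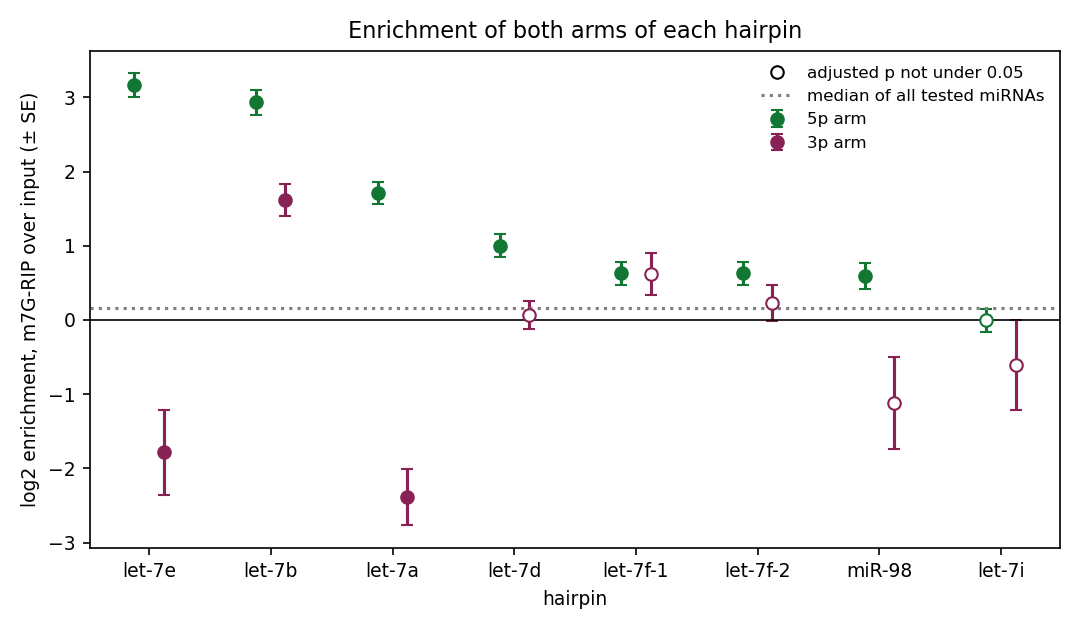
Log2 enrichment of m7G-RIP over input with its SE for the 5p and 3p arm of each hairpin, filled where edgeR's adjusted p was under 0.05, with a dotted line at the median of all tested miRNAs (0.16). let-7f-5p is drawn at both let-7f hairpins because its reads cannot be split between them; let-7e has the highest 5p arm (3.16) and one of the lowest 3p arms (-1.78).

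The 3p arm lost share against the 5p arm in 4 of 8 hairpins, let-7a, let-7b, let-7d and let-7e, and gained it in none (limma on log2 ratios of counts, adjusted p under 0.05 over 215 arm pairs). Of all 215 pairs 67% were called, 44.7% with the 3p arm lower and 22.3% with it higher. With 0.5 added to the counts, the ratios of the 4 called hairpins did not overlap between groups, whereas those of the other 4 did. For miR-98 this overlap came from the added 0.5, as its shares without it did not overlap. Among all pairs 75.3% did not overlap, 49.8% with the 3p arm lower and 25.6% with it higher. The median change of the log2 ratio was -1.11 over the 8 hairpins and -0.77 over all pairs. The hairpins started from a small 3p share: their median was 0.623% of both arms in the input, against 60.9% over all pairs.

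let-7e had the widest gap between its arms. Its 3p arm made up 1.02, 1.01 and 0.959% of both arms in the input libraries and 0.0356, 0.0591 and 0% in the m7G-RIP libraries, so that the mean share was 31.5-fold lower in m7G-RIP. The log2 ratio fell by 5.83 (SE 1.25, limma adjusted p = 0.00975) with a pseudocount of 0.5, a size that depends on that pseudocount because 1 library had no count. Without m7G-RIP replicate 3, the library with no count, the change was -4.40, and without replicate 2 it was -6.72.

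The share of let-7a-3p went from 0.573, 0.774 and 0.591% in the input to 0.0588, 0.0293 and 0.0183% in m7G-RIP. Its log2 ratio fell by 4.33 (SE 0.45, limma adjusted p = 0.000639), which is 20.1-fold. let-7a-5p also comes from MIRLET7A2, whose 3p arm let-7a-2-3p had 1 count in all libraries together. For both let-7a and let-7e the 5p arm was called enriched and the 3p arm depleted, a combination found in 25 of the 215 pairs (11.6%), while 14 pairs had the opposite one.

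let-7b was the hairpin in which both arms were enriched. The share of let-7b-3p nevertheless fell, from 2.67, 2.60 and 2.73% in the input to 1.34, 1.08 and 0.936% in m7G-RIP, while let-7b-5p was enriched more. Its log2 ratio fell by 1.29 (SE 0.21, limma adjusted p = 0.0034), which is 2.45-fold. let-7d-3p had by far the highest share, with 23.6, 18.5 and 20.9% in the input and 10.6, 10.5 and 16.3% in m7G-RIP. Its log2 ratio fell by 0.93 (SE 0.29, limma adjusted p = 0.0343). This call was lost without input replicate 1 or 3 and without m7G-RIP replicate 1 or 2 (log2 changes of -0.93 to -0.80, limma adjusted p up to 0.109) and with no filter on low counts (limma adjusted p = 0.0843).

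**Figure D3:**
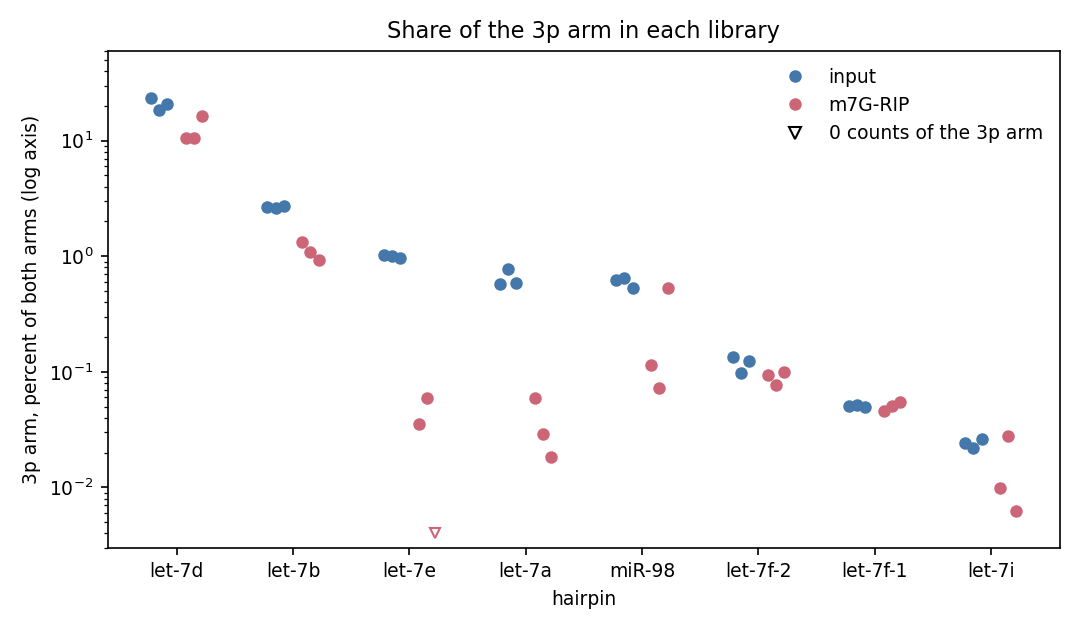
Counts of the 3p arm as a percent of the counts of both arms in each library, on a log axis, for input and m7G-RIP, with an open triangle for the let-7e library with 0 counts of the 3p arm. The groups lie apart in let-7d, let-7b, let-7e and let-7a and overlap in let-7f-2, let-7f-1 and let-7i. In miR-98 the highest m7G-RIP share (0.527%) lies just below the lowest input share (0.531%).

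In the let-7f hairpins no change of the ratio was called, though the intervals leave room for one. let-7f-1-3p made up 0.0506% of its reads with let-7f-5p in both groups, and the log2 ratio changed by 0.00 (95% confidence interval -0.41 to 0.42, limma adjusted p = 0.994). let-7f-2-3p went from 0.118 ± 0.0190% to 0.0900 ± 0.0123% (SD, n = 3 each), a log2 change of -0.38 with an interval of -0.93 to 0.16 (limma adjusted p = 0.174). Both ratios use the same let-7f-5p counts, which pool both let-7f loci. The miR-98-3p share was 0.620, 0.651 and 0.531% in the input and 0.115, 0.0726 and 0.527% in m7G-RIP, with m7G-RIP replicate 3 close to the input (log2 change -1.68, interval -3.47 to 0.10, limma adjusted p = 0.0838). Without replicate 3 the change was -2.48 and passed the test (limma adjusted p = 0.00195). Over the m7G-RIP libraries left out in turn it ran from -2.48 to -1.15. let-7i-3p changed by -0.75 (interval -1.92 to 0.42, limma adjusted p = 0.206), and by -1.26 without m7G-RIP replicate 2 (limma adjusted p = 0.00571). Over the m7G-RIP libraries left out in turn its change ran from -1.26 to -0.42. let-7g-3p made up 0.0113 ± 0.00640% of both arms in the input and had 0 of 111542 counts in m7G-RIP, which allows a share of up to 0.00269%.

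Differences among the 3p arms were tested directly by taking each as a ratio to let-7b-3p in the same library. let-7b-3p was the reference because it is the let-7 3p arm in the study's list of METTL1-dependent m7G miRNAs, which was drawn up in A549 cells. As its enrichment in the libraries used here was also known, the direction of these differences is not independent evidence. All 7 other tested 3p arms were less enriched than let-7b-3p (limma adjusted p under 0.05 over 799 miRNAs), where 75.3% of all miRNAs were called, 58.8% as lower and 16.5% as higher than let-7b-3p. let-7f-1-3p, which differs from it by C9U and C13U, came nearest at -1.01 on the log2 scale (95% confidence interval -1.63 to -0.39), or 2.01-fold less (limma adjusted p = 0.00765). let-7f-2-3p stood at -1.40 (interval -1.93 to -0.86) and let-7d-3p at -1.55 (interval -1.95 to -1.15). let-7i-3p stood at -2.36 (interval -3.72 to -1.003) and miR-98-3p, which shares the seed and lacks guanosine, at -2.74 (interval -4.07 to -1.40). let-7a-3p, which has the same seed and the same single guanosine as let-7b-3p and differs by C9U, C16U and C20U, stood at -4.24 (interval -5.24 to -3.25, limma adjusted p = 8.61e-06), or 19.0-fold less. let-7e-3p stood at -4.30 (interval -6.43 to -2.17, limma adjusted p = 0.0021), which became -2.95 without m7G-RIP replicate 3 and -5.23 without replicate 2. let-7a-3p and let-7e-3p are the lowest in this order, and their intervals overlap.

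miR-98-5p was compared in the same way with the let-7 5p arms, which have the same seed. Of the 8, 5 were more enriched than miR-98-5p and 2 less, where 73.1% of all miRNAs were called, 29.4% as higher and 43.7% as lower than miR-98-5p. let-7e-5p was higher by 2.59 on the log2 scale (95% confidence interval 2.03 to 3.14, 6.01-fold, limma adjusted p = 8.54e-06), and let-7b-5p by 2.35 (interval 1.76 to 2.94). let-7a-5p (1.14), let-7c-5p (0.75) and let-7d-5p (0.43) followed, of which let-7d-5p (limma adjusted p = 0.0335) was lost without any 1 of the input replicates and without m7G-RIP replicate 1 (limma adjusted p of 0.0621 to 0.118). let-7f-5p differed from miR-98-5p by 0.04 (interval -0.22 to 0.31, limma adjusted p = 0.752). let-7i-5p (-0.56, interval -0.91 to -0.21) and let-7g-5p (-0.72, interval -1.02 to -0.41) were less enriched. With miR-98-5p as the reference base, let-7e-5p carries U9G, A11G and U19A, let-7f-5p carries A11G, G12A and U19A, and let-7g-5p carries A11G, G12U, U18C and U19A. Because the let-7 5p arms differ from each other by few bases, reads with a sequencing error can be counted under a neighbour, and the much more abundant let-7a-5p and let-7f-5p (854478 and 872140 counts over all libraries) can add to rarer ones.

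**Figure D4:**
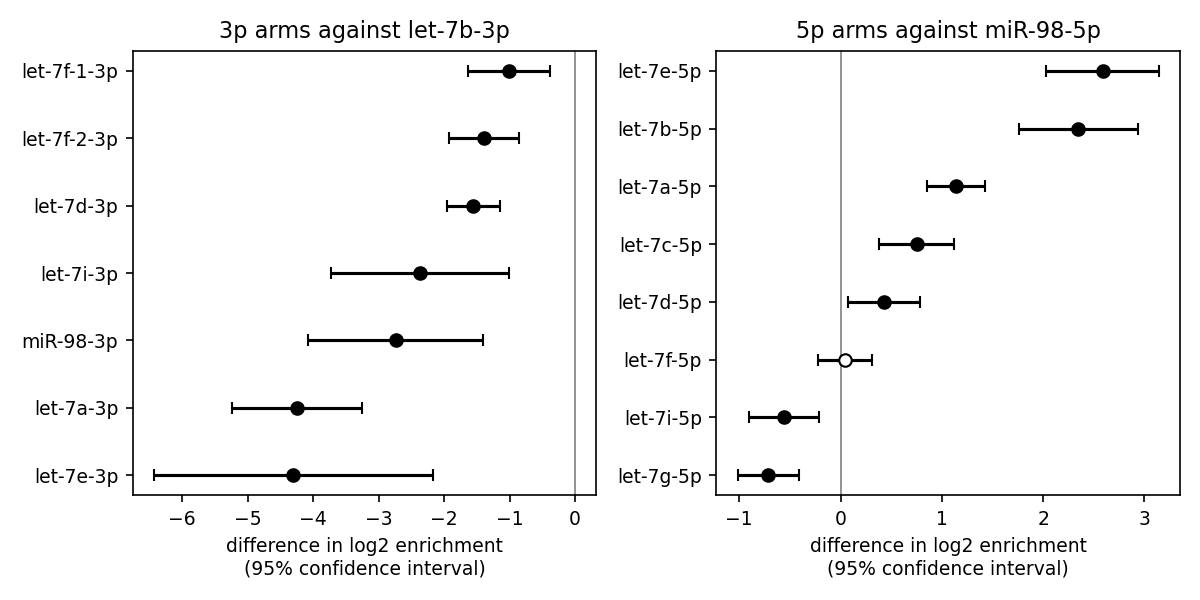
Difference in log2 enrichment with its 95% confidence interval, for the 3p arms against let-7b-3p (left) and for the let-7 5p arms against miR-98-5p (right), with filled points where limma's adjusted p was under 0.05. All 3p arms lie below let-7b-3p, from -1.01 to -4.30, while the 5p arms lie on both sides of miR-98-5p, from 2.59 to -0.72.

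The number of guanosines in the mature sequence was set beside the enrichment as a description. Over the 714 tested miRNAs with a RefSeq sequence, the guanosine share and log2 enrichment had a Pearson r of 0.498 and a Spearman rho of 0.497 across miRNAs, which share libraries and are not independent replicates. Over the 16 tested let-7 and miR-98 arms r was 0.630 and rho 0.618. Within the 7 tested 3p arms of the family that have a sequence, r was -0.09 and rho -0.22, and over all 289 tested 3p arms r was 0.110 and rho 0.010. Among these 714, miR-98-3p was the only one with 0 guanosines. Of the 19 with 1 guanosine, 6 were enriched, let-7b-3p among them, and 7 depleted, let-7a-3p among them. Among the 185 with 9 or more, 157 were enriched and 11 depleted, against 83 and 164 of 325 with 5 to 8 guanosines and 44 and 86 of 184 with 2 to 4. The share enriched was thus 31.6% with 1 guanosine, 23.9% with 2 to 4, 25.5% with 5 to 8 and 84.9% with 9 or more. The cytidine share, looked at after the values were seen, had an r of 0.655 and a rho of 0.512 with enrichment over the 7 3p arms, from 28.6% in let-7a-3p to 45.5% in let-7b-3p, and an r of 0.299 and a rho of 0.317 over the 289 3p arms. Its sign was the opposite over the 16 let-7 and miR-98 arms (r -0.54, rho -0.56) and over the 714 miRNAs (r -0.12, rho -0.23).

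**Figure D5:**
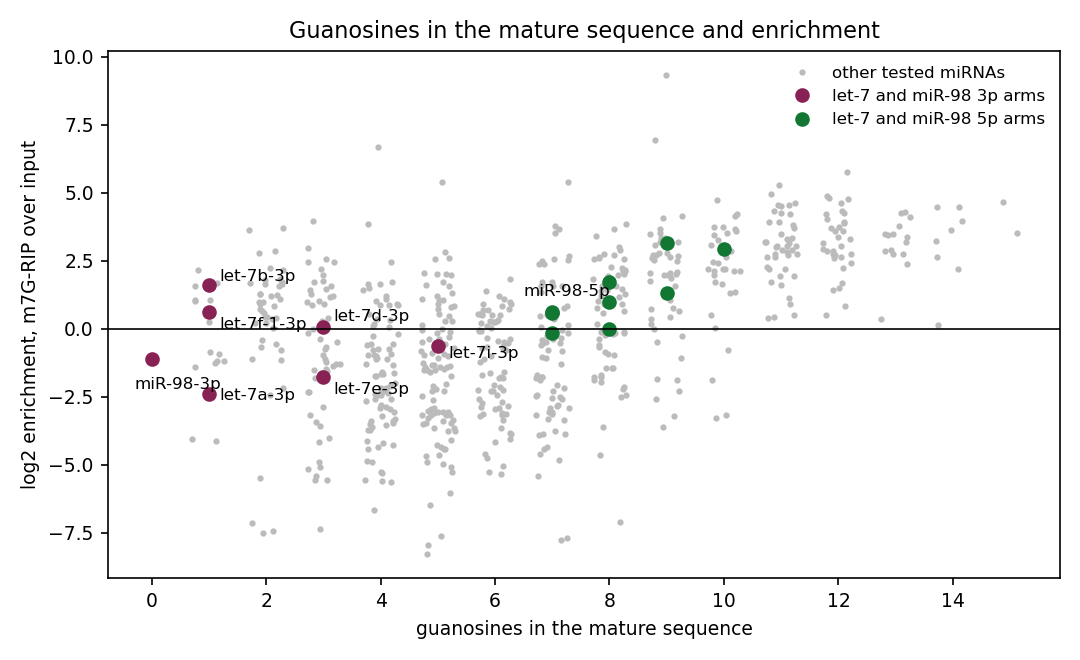
Number of guanosines in the mature sequence against log2 enrichment for the 714 tested miRNAs with a RefSeq sequence, with grey points spread sideways to separate them. The let-7 and miR-98 3p arms have 0 to 5 guanosines and lie between -2.39 and 1.62, and the 5p arms have 7 to 10 and lie between -0.15 and 3.16.

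Several other miRNAs share a seed or a hairpin cluster with these arms. miR-4458, which has the let-7 5p seed in a shorter sequence, rose from 72, 82 and 65 counts in the input to 106, 95 and 69 in m7G-RIP (log2 1.99, SE 0.26, edgeR adjusted p = 1.61e-05), and miR-4500, with the same seed, had too few counts to be tested. The let-7 3p arm let-7c-3p had 4, 6 and 3 counts in the input and 0 in each m7G-RIP library, at least 1.36-fold lower with the same floor. Of the cluster partners, miR-99b and miR-125a lie beside let-7e, and both their 5p arms were enriched (log2 1.32 and 0.88). Their 3p arms moved apart, with miR-99b-3p depleted (log2 -0.83, SE 0.17) and miR-125a-3p enriched (log2 3.19, SE 0.22), where let-7e-3p was depleted. Both arms of miR-4763, the partner of let-7b, had too few counts to be tested.

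Among the 254 tested miRNAs outside the family whose average log2 CPM was 5 or more, those whose levels over the 6 libraries were most like let-7b-3p were miR-25-5p (Pearson r of log2 CPM 0.9997, log2 enrichment 1.87), miR-193a-5p (r 0.998, 1.71) and miR-1908-5p (r 0.997, 3.06). Those most like miR-98-5p were miR-576-3p (r 0.965, 0.91), miR-146b-5p (r 0.964, 0.26) and miR-424-3p (r 0.925, 0.56). The 6 libraries fall into input and m7G-RIP, so that any miRNA that is even within groups and enriched scores high on this measure.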

How the data were processed

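Small RNA libraries were sequenced from 3 input and 3 m7G-RIP samples of Caco-2 cells. The authors deposited raw read counts per mature miRNA and library, whole numbers without normalization; replicates were not pooled. Per the labels, Trimmomatic, Bowtie2 and featureCounts were used with GRCh38, while the methods name STAR with the ENCODE small RNA settings, under which 1 read can align at several loci. How such reads were counted is not given in the sources used here. The 4 miRNAs with 4 loci and at least 50 counts had only multiples of 4. Of the 50 such miRNAs with 2 loci, 17 had even counts in all 6 libraries, and 76.7% of the values were even. let-7a-3p (2 loci) had an even count in 3 of 6 libraries. This check was added after the data were seen.

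Groups were taken from the sample labels. Enrichment was computed from the deposited counts with edgeR 4.0.16 in R 4.3.3 (TMM factors, filterByExpr with a minimum count of 10 and minimum total of 15, quasi-likelihood test, Benjamini-Hochberg adjustment over 800 miRNAs, called under 0.05). The SE is the absolute log2 value divided by the square root of F. Ratios of 3p to 5p counts, and of miRNAs to let-7b-3p or miR-98-5p, were tested with limma 3.58.1 on log2(count + 0.5); 3p arms were paired with 5p arms by name. The let-7f-1 and let-7f-2 3p arms were set against let-7f-5p. Scripts were tested on simulated data. Alternatives were other scalings, DESeq2 1.42.0, other filters, a pseudocount of 1, an edgeR offset, the replicate block and leaving out each library. Sequence features were computed in Python 3.11.15.

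Named miRNAs were all members, the let-7 5p arms, the other let-7 3p arms, cluster partners, miRNAs with the let-7 seed and the 3 with the most similar levels to let-7b-3p and to miR-98-5p. The members and lists were chosen with earlier results of these data known. Precision is limited by the m7G-RIP totals of 1654102 to 3105129 counts.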

Additional observations from a re-analysis of the deposited data

How the results depend on the processing

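The numbers of the 10 miRNAs called enriched or depleted changed with the scaling and filter, which move the zero of enrichment. Counts drawn from ratios within a library do not depend on the scaling. Of the 10 miRNAs, 1 was enriched with DESeq2's size factors, DESeq2's Wald test or no filter, and 5 were enriched and 1 depleted with total counts or upper-quartile factors; with at least 10 counts in every library, which left 6 of them tested, 1 was depleted. Leaving out 1 library gave 1 to 3 enriched and 2 to 4 depleted, and 3 to 6 hairpins with a lower 3p share. It gave 5 to 8 3p arms below let-7b-3p and 4 to 5 let-7 5p arms above miR-98-5p. Leaving out an m7G-RIP library also brought let-7g-3p into the test. Leaving out an input library took let-7i-3p and miR-98-3p out of it, and all 5 other 3p arms then tested were below let-7b-3p. With at least 10 counts in every library 4 3p arms were below let-7b-3p, as only those were tested. The sign of let-7d-3p turned to -0.27 with DESeq2's size factors, -0.28 with the Wald test, -0.25 with no filter, -0.056 when every library had to hold at least 10 counts, and -0.15 without m7G-RIP replicate 3 (-0.15 to 0.15 over the libraries left out). That of let-7f-2-3p turned to -0.12 with DESeq2's size factors, -0.12 with the Wald test and -0.079 with no filter, and that of let-7i-3p to 0.46 (total counts) and 0.20 (upper-quartile factors). The arm ratio of let-7f-1, near 0, became -0.0052 with the edgeR offset and -0.014, -0.0023 and -0.064 without input replicate 3, m7G-RIP replicate 2 or m7G-RIP replicate 3 (highest value 0.076). Apart from the scalings, filters and construction named here, the cause was not tested.

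Deviations from the group means were uncorrelated between libraries of 1 number (correlations of -0.0207, -0.0129 and 0.0366), and the main fits did not read the replicate numbers as pairs. By the study's protocol the input was an aliquot of the RNA set aside before immunoprecipitation, so libraries of 1 number may share RNA. Low correlations cannot exclude such pairs where the spread is mostly technical. With the replicate block 2 members were enriched and 2 depleted, 3 hairpins had a lower 3p share and 4 let-7 5p arms were above miR-98-5p. The arm ratio of let-7d (adjusted p = 0.0651 with the block) and let-7d-5p against miR-98-5p (adjusted p = 0.0839 with the block) were no longer called.

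Under the alternatives 271 values of single miRNAs kept their direction and side of the threshold, 17 lost a call, 11 gained a call and 14 turned sign, and 73 counts stayed within 1.5 times while 11 did not. Depth limits let-7e-3p, let-7g-3p, let-7i-3p and miR-98-3p, which had at most 17 counts in any m7G-RIP library.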
